A study of Homo sapiens with 4 samples.

Results

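DNA loops in which both anchors lay at start sites of the same gene made up 3379 of the 66417 RNAPII-associated loops of mock-treated HepG2 cells and 988 of the 18778 loops listed after PDS treatment. They were taken from the loop lists by position alone. Each anchor had to reach within 1 kb of a start site of a protein-coding gene, counting every annotated transcript of GENCODE 44 on GRCh38, and the genes found at both anchors had to be a single gene. In either list there were 3877 such loops of 77862, and 490 of them were in both lists. They are called same-gene promoter loops here, and the PETs (paired-end tags) of a loop are the ligated read pairs that join its anchors.

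POLR2A HiChIP-seq joins DNA fragments that lie close together in nuclei and then collects the junctions bound by POLR2A, the largest subunit of RNAPII. HepG2 is a hepatocellular carcinoma cell line with several gained chromosomes. The cells of both groups were the same unmodified line and were cross-linked with formaldehyde after 24 h, in 2 replicates of mock treatment with water and 2 replicates of treatment with 20 µM PDS (pyridostatin), a small molecule that binds guanine quadruplexes (G4s). The replicates of a condition were combined in the deposited loop lists, so each loop had 1 count per condition, replicate variation is unknown and conditions were compared without p-values. Intervals are 95% intervals of counting error only. The lowest listed count was 3 PETs in both lists, so an absent loop had 2 PETs or fewer if that minimum alone decided the listing, which the sources used here do not state. The mock list held 254647 PETs in all and the PDS list 67001. The counts were not scaled for the number of sequenced read pairs, and fewer cells with a contact and fewer read pairs cannot be told apart in them.

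Many human genes start transcription at more than 1 promoter, and the choice of promoter sets the first exon, the untranslated leader and at times the N-terminus of the protein. RNAPII is loaded at a promoter and then travels through the gene body, so a contact between start sites of a gene that is bound by RNAPII can hold initiating or elongating enzyme. G4s form in single-stranded runs of guanines and are common near promoters that are rich in CpG dinucleotides.

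The pair of loops at GMEB2 and ASPSCR1 shows sequences of start sites that lie at the anchors of such loops. Both had 14 mock PETs and a G4 motif at both anchors, while GMEB2 had 9 PETs after PDS and ASPSCR1 was not in the PDS list. The lists give whole anchors, and not which bases within them were joined. Bases from 50 before to 50 after the start site are printed in the direction of transcription, and the capital marks the first transcribed base. The first sequence of GMEB2 is the internal start of transcript GMEB2-202 (chr20:63604852-63604952, minus strand) and the second is the canonical start of GMEB2-203 (chr20:63627051-63627151, minus strand). The first sequence of ASPSCR1 is the canonical start of ASPSCR1-202 (chr17:81977579-81977679, plus strand) and the second is the internal start of ASPSCR1-213 (chr17:81995393-81995493, plus strand). All are from GRCh38.
GMEB2 internal start: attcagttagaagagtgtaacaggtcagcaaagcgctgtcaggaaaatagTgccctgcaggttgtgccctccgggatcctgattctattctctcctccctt
GMEB2 canonical start: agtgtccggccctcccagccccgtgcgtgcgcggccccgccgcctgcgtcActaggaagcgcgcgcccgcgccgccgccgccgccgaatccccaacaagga
ASPSCR1 canonical start: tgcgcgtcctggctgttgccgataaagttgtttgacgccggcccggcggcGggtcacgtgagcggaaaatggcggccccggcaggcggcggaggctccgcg
ASPSCR1 internal start: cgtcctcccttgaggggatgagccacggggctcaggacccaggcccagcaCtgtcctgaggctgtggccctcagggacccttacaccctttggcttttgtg
In both genes the canonical start was richer in G and C, at 78.2% in GMEB2 and 71.3% in ASPSCR1, than the internal start, at 49.5% and 64.4%.

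The G4 motifs nearest to the start sites of the 5 strongest mock loops with a motif at both anchors are shown next, with their runs of at least 3 G in capitals. The fifth place was tied at 11 mock PETs between RFX2, TNS1, GSN and SARDH, and the first of these in the sorted order of chromosome names is shown. A motif had 4 G runs of this length, separated by 1 to 7 bases and found on the plus or minus strand. A long unbroken G run may hold more than 1 of the 4, as in the ACTB anchor that holds the canonical start. Each is printed 5′ to 3′ on the strand that carries the G runs. At ACTB, which encodes the cytoskeletal protein β-actin, the motifs lay at chr7:5530408-5530436 on the minus strand and at chr7:5563028-5563047 on the plus strand. At ASPSCR1, a tether of the glucose transporter GLUT4, they lay at chr17:81977490-81977512 on the plus strand and chr17:81995583-81995601 on the minus strand. At GMEB2, which binds glucocorticoid modulatory elements, they lay at chr20:63619218-63619242 and chr20:63626822-63626841, both on the minus strand. At ACSL3, a long-chain acyl-CoA synthetase of lipid droplets, they lay at chr2:222860800-222860820 on the minus strand and chr2:222890241-222890263 on the plus strand. At RFX2, a transcription factor of ciliated cells, they lay at chr19:5997004-5997032 on the minus strand and chr19:6008190-6008218 on the plus strand.
ACTB, anchor with the canonical start: GGGccgcagcGGGGGGcgcatGGGGGGGG
ACTB, far anchor: GGGtGGGGatGGGGtGGGGG
ASPSCR1, anchor with the canonical start: GGGcGGGGccGGGGcgccgtGGG
ASPSCR1, far anchor: GGGGtGGGcaGGGatcGGG
GMEB2, anchor with the canonical start: GGGGaGGGccGGGGGaGGGG
GMEB2, far anchor: GGGGctgatGGGGGcttGGGttGGG
ACSL3, anchor with the canonical start: GGGGcGGGGGcGGGaacGGGG
ACSL3, far anchor: GGGcttttGGGGGtGGGaaGGGG
RFX2, first anchor: GGGGcttggccGGGcctgtGGGGagaGGG
RFX2, second anchor: GGGcgctGGGaactcGGGGaagacgtGGG
The distance from a motif to the nearest start site ran from 8 bases, at the second anchor of RFX2, to 634 bases, at the far anchor of GMEB2. After PDS these loops had 6 PETs at ACTB, 9 at GMEB2, 3 at ACSL3 and 3 at RFX2, against 15, 14, 13 and 11 in mock-treated cells. A motif here is a match of letters and no measurement of a folded structure.

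The name "alternative promoters" held by annotation more than by any sign of promoter use. The 3379 mock loops used 5702 anchors. The canonical start site, which is the start of the transcript that Ensembl takes as representative, was at 23.6% of these anchors, and 44.3% held no transcript of the protein_coding type. Retained-intron transcripts were the only ones to start at 19.4% of the anchors, and transcripts without a defined coding sequence at 14.1%. A single start site stood at 43.0% of the anchors. Per loop, 1465 had the canonical start at an anchor and 1914 had it at neither. In 1179 loops (34.9%, 33.3 to 36.5%) protein_coding transcripts started at both anchors, and in 476 (14.1%, 13.0 to 15.3%) transcripts of the GENCODE basic set did. In 273 loops (8.08%, 7.21 to 9.05%) a start site between close anchors was within reach of both, so these loops need not join different promoters. A further annotated feature touched 200 loops (5.92%), which joined the canonical start to the anchor with the end of the same transcript.

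The loops were short and many joined neighbouring anchors. Anchor midpoints were a median of 13532.5 bp apart (13162.5 to 13930.5 bp) in mock-treated cells and of 14218.2 bp (13567.5 to 14878.5 bp) after PDS, so the intervals overlap. Promoter loops that joined different genes had a mock median of 42307.5 bp (40335.5 to 44303.5 bp). Loops inside a gene body with no start site at either anchor had one of 12557.8 bp (12352.5 to 12757.5 bp). No further anchor of either list lay between the anchors in 65.5% of same-gene promoter loops (63.9 to 67.1%), in 65.4% of the loops inside a gene body (64.6 to 66.2%) and in 24.7% of the loops between different genes (23.4 to 26.1%). In these spans the same-gene loops were close to loops inside gene bodies and apart from loops between genes. The gap between the inner ends of the anchors had a median of 3955 bp and reached 342765 bp in mock-treated cells.

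Same-gene promoter loops were fewer after PDS, by a factor close to that of the whole list. The PDS/mock ratio of loop numbers was 0.292 (0.272 to 0.314), against 0.283 (0.278 to 0.287) for all listed loops. That of loops between different genes was 0.222 (0.207 to 0.239), and that of loops inside a gene body was 0.295 (0.285 to 0.306). The PETs summed over the same-gene loops were 13730 in mock-treated cells and 3513 after PDS, a ratio of 0.256 (0.247 to 0.266). Divided by the PET total of each list, this ratio became 0.972 (0.937 to 1.01), so the loops held nearly the same part of the listed PETs in both conditions. The mean count was 4.06 PETs per mock loop and 3.56 per PDS loop. A count of 3, the lowest possible, was seen in 51.1% of the mock loops and 65.3% of the PDS loops.

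Of the 3379 mock loops, 490 (14.5%, 13.4 to 15.7%) were also in the PDS list, against 11.0% of all mock loops. The share rose with the mock count. It was 7.18% for the 1727 loops with 3 PETs, 14.1% for the 795 loops with 4, 21.0% for the 385 loops with 5 and 30.2% for the 215 loops with 6. It reached 34.6% at 7 PETs, 39.0% at 8 to 9 and 64.6% (50.4 to 76.6%) for the 48 loops with 10 or more. Among loops between different genes the share was 4.15% at 3 PETs, 9.60% at 4 and 66.0% at 10 or more, so the classes parted at low counts and not at high ones.

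**Figure D1:**
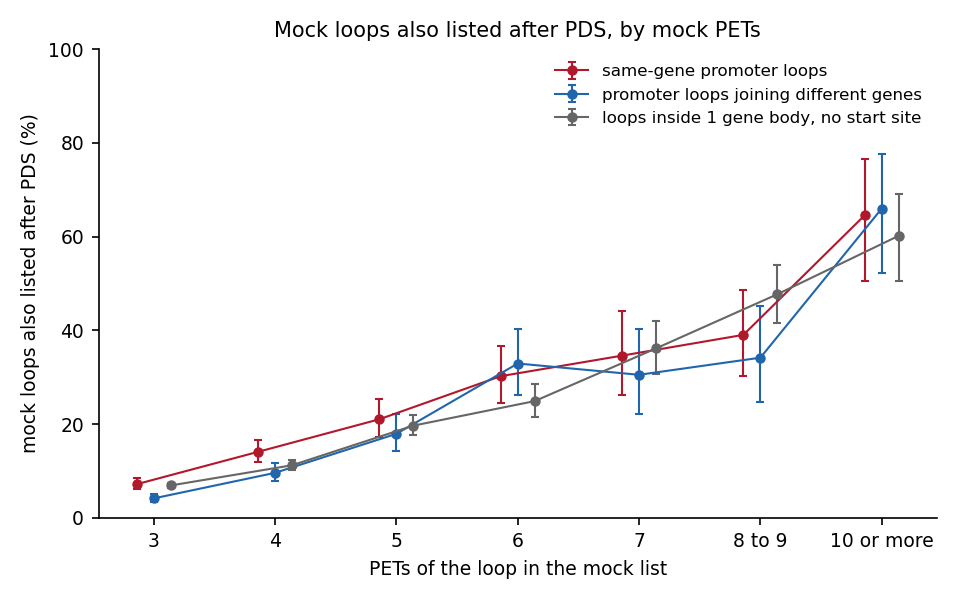
Percent of mock loops that were also listed after PDS (vertical axis) by the PETs of the loop in the mock list (horizontal axis), for same-gene promoter loops, promoter loops that join different genes and loops inside a gene body without a start site. Points are shares, bars are 95% Wilson intervals, and the share of same-gene loops goes from 7.18% at 3 PETs to 64.6% at 10 or more.

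At equal mock PETs, the odds of being listed after PDS were 1.39 times (1.19 to 1.61) as high for same-gene promoter loops as for promoter loops between different genes, by a Mantel-Haenszel odds ratio over classes of mock PETs. With distance as a further stratum the odds ratio was 1.21 (1.03 to 1.42), and within chromosomes it was 1.40 (1.20 to 1.64). The first interval included 1 when only basic transcripts were counted, at 1.26 (0.933 to 1.69), and when both lists were limited to 5 PETs or more, at 1.43 (0.941 to 2.17). Against loops inside a gene body the odds ratio was 1.10 (0.984 to 1.24), or 1.08 (0.959 to 1.21) with distance as a further stratum, 1.14 (1.01 to 1.29) within chromosomes and, without strata, 1.29 (1.16 to 1.44), so the last 2 intervals excluded 1 and the first 2 did not. Against loops with a start site at 1 anchor and the body of the same gene at the other it was 1.08 (0.954 to 1.21), and without strata 1.15 (1.03 to 1.29). A further class held 1000 promoter loops whose anchors shared a gene but also held another, with a mock median of 13200 bp. Of these, 15.3% (13.2 to 17.7%) were listed after PDS. Against them the odds ratio was 1.07 (0.872 to 1.32), and without strata 0.939 (0.771 to 1.14). These intervals treat loops as independent, and since loops of a gene share anchors they are too narrow.

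The 490 loops in both lists allow a comparison of counts. PETs were lower after PDS in 295 of them, equal in 130 and higher in 65 (4057, 2209 and 1067 over all 7333 shared loops). Because both counts had to reach 3, the ratio of PDS to mock rates was estimated with a binomial model that allows for this limit, over the 398 loops whose counts added up to between 7 and 19. The estimate was 0.471 (0.425 to 0.521), against 0.493 (0.480 to 0.507) for all shared loops and 0.424 (0.376 to 0.476) for those between different genes. The intervals of the same-gene and different-gene loops overlap.

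The number of listed loops was also set against the number of candidate anchor pairs. Anchors are known here only from listed loops, so a listed pair in the distance range was always among its own candidates. The shares below are therefore no rates of contact among all start sites. Of 13946 pairs of anchors that belonged to the same single gene, lay 5 to 200 kb apart and were used by some loop of either list, 24.1% (23.4 to 24.8%) were listed in mock-treated cells and 7.06% (6.64 to 7.49%) after PDS. Pairs of promoter anchors with different genes were listed in 5.68% and 1.24% of 65299 cases. Much of this gap came with distance. Under 10 kb, 59.2% of 1801 same-gene pairs and 56.5% of 542 different-gene pairs were mock loops, with overlapping intervals. From 20 to 50 kb the shares were 17.8% and 13.0%, with intervals that did not overlap, and from 50 to 200 kb they were 5.33% (4.75 to 5.99%) and 2.69% (2.56 to 2.83%). At 20 to 50 kb the PDS shares were 5.68% (5.03 to 6.41%) and 2.84% (2.52 to 3.20%). Pairs inside a gene body without start sites were listed less often than same-gene pairs in each of the 4 distance classes in mock-treated cells, for example in 9.43% (9.09 to 9.77%) of pairs at 20 to 50 kb.

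**Figure D2:**
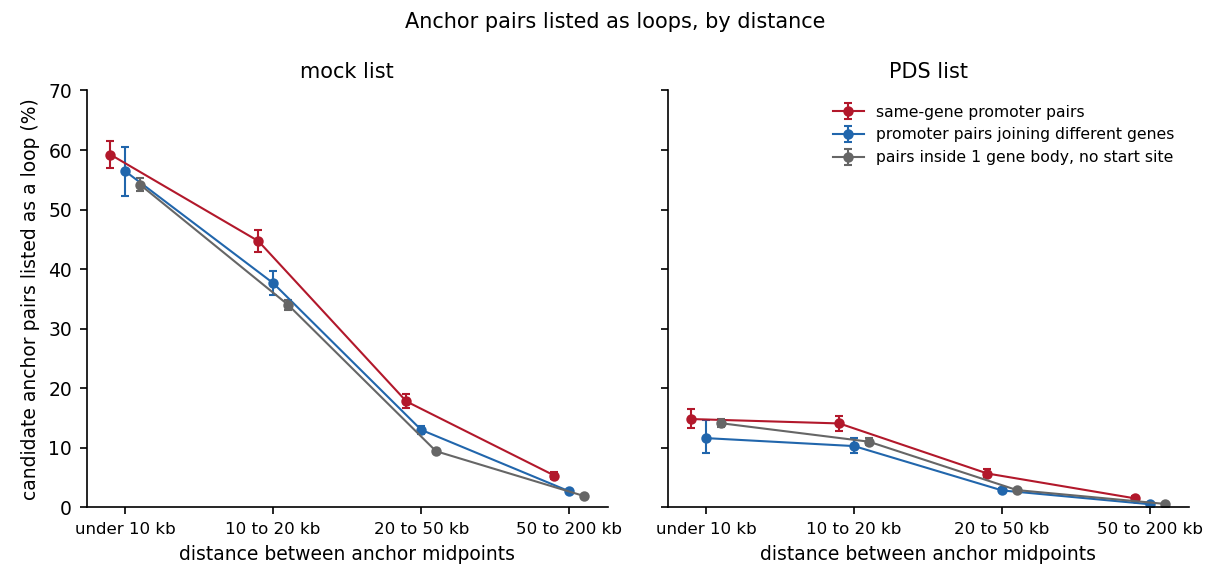
Percent of candidate anchor pairs listed as a loop (vertical axis) by the distance between anchor midpoints (horizontal axis), in the mock list on the left and the PDS list on the right, with 95% Wilson intervals as bars. Same-gene promoter pairs fall from 59.2% under 10 kb to 5.33% at 50 to 200 kb in the mock list and from 14.8% to 1.49% in the PDS list.

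By distance, the PDS/mock ratio of same-gene promoter loops was 0.250 (0.219 to 0.286) under 10 kb, 0.315 (0.282 to 0.353) from 10 to 20 kb, 0.319 (0.277 to 0.369) from 20 to 50 kb and 0.277 (0.216 to 0.355) beyond 50 kb. The lowest ratio was that of the shortest loops, and its interval overlaps those of the other classes.

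All 48 same-gene promoter loops with 10 or more mock PETs had fewer PETs after PDS or were not listed. Of these, 17 (35.4%, 23.4 to 49.6%) were not in the PDS list, against 37.4% of all mock loops with so many PETs, and the other 31 had 3 to 9 PETs there. Since loops were picked here for a high mock count, some fall would follow from the choice alone. The loops at the top of the list belong to genes of quite different function.

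RBM39, a splicing factor, had 15 mock PETs and 8 PETs after PDS between chr20:35721758-35728727 and chr20:35731423-35737638. ACTB had 15 and 6 PETs between chr7:5522043-5534857, which holds the canonical start, and chr7:5544906-5564553, where ACTB-205 starts. SLC17A3, a urate and organic anion transporter, had 15 mock PETs and was not in the PDS list. These equal mock counts were thus followed by 8 PETs, 6 PETs or no listing. NBPF1, a member of the neuroblastoma breakpoint family, had 15 and 6 PETs. That family has near-identical copies, and 63.2% of the 31-base sequences in the less unique anchor of this loop occurred once in the reference, so its counts are uncertain.

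At 14 mock PETs, GMEB2 kept 9, TAB2, an adaptor of the kinase TAK1, kept 5, SEC23A, a coat protein of vesicles that leave the endoplasmic reticulum, kept 4, and ASPSCR1 was not listed after PDS. At 13 mock PETs, USP24, a deubiquitinase, kept 7, and the GTPase-activating protein ARHGAP5 and the G protein subunit GNA12 kept 5 each. ALB, the gene of serum albumin, kept 4, and ACSL3 and the chromatin reader ZMYND8 kept 3 each. The ALB loop joined the anchor of the canonical start to that of its transcript end, 14.6 kb apart, and a start site was within reach of both, so it is no sure case of different promoters. The ARHGAP5 loop also joined the canonical start and end, over 81.0 kb. At 12 mock PETs, HEATR5A kept 3.

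The loops that were strong and then not listed after PDS included, besides SLC17A3 and ASPSCR1, those of IVNS1ABP and PWP1 with 12 mock PETs. CHPT1, which makes phosphatidylcholine, GSN, which severs actin filaments, and SARDH, the mitochondrial sarcosine dehydrogenase, had 11. CFAP221, DHRS4L2, IL1R2, MTA3, RALGAPA1, RFX6, RSPRY1, SMOX, STARD7 and XPO1, the nuclear export receptor, had 10. In DHRS4L2 only 30.7% of the 31-base sequences of an anchor were single-copy, so its count is uncertain. In the 17 absent and the 31 listed loops the median distances were 14539.5 and 16922 bp, 10 and 15 had the canonical start at an anchor, and 11 and 22 had a G4 motif at 1 or both anchors. A start site was in reach of both anchors in 9 of the 48, among them the loops of USP24, HEATR5A and IVNS1ABP.

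**Figure D3:**
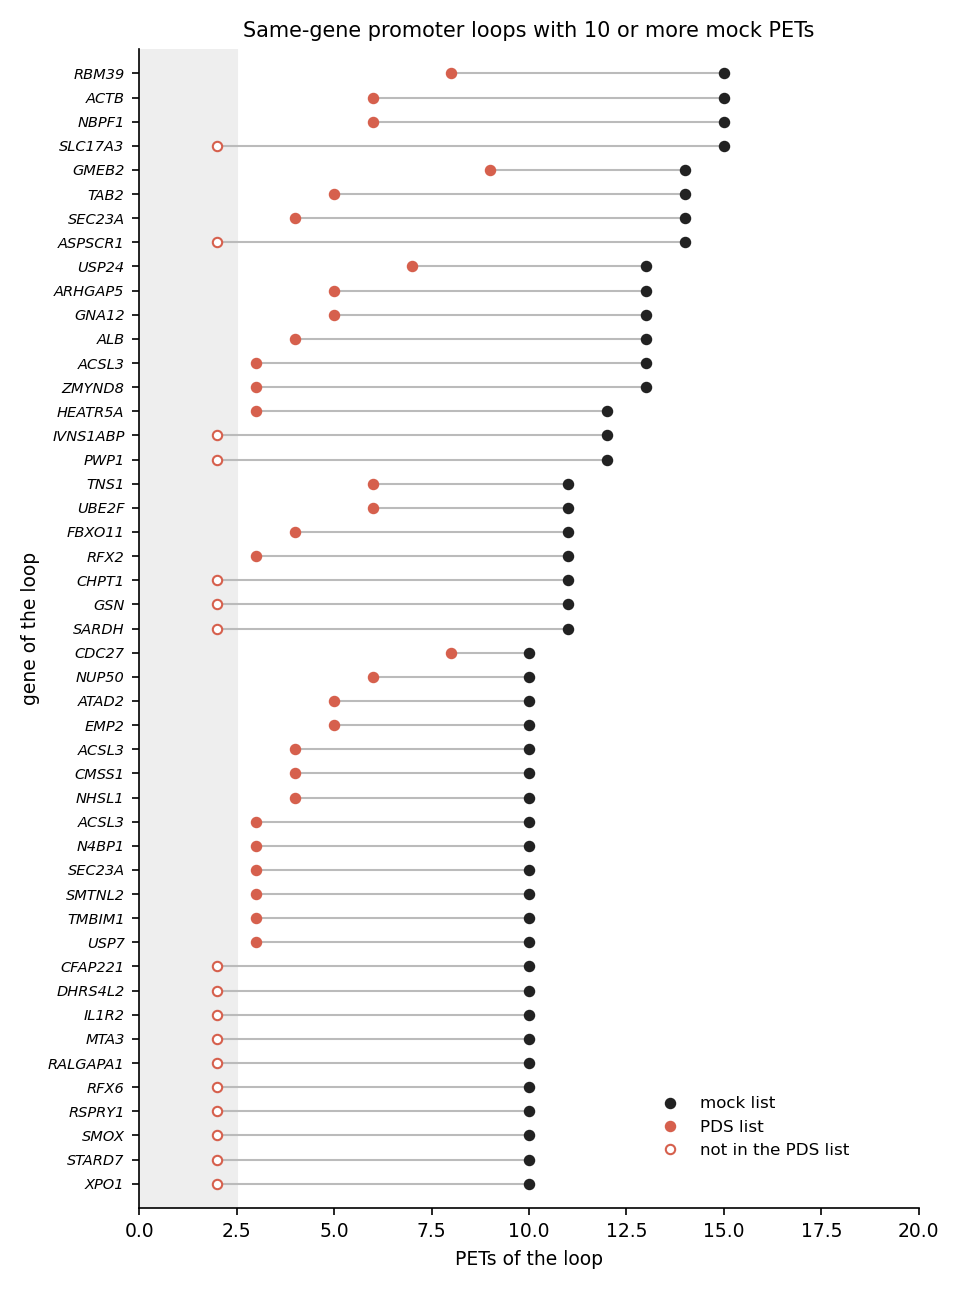
PETs (horizontal axis) of the same-gene promoter loops with 10 or more mock PETs, apart from 1 loop of the 48 that is not shown, 1 loop per line named by its gene, in the mock list (black) and the PDS list (red). Open symbols in the grey band, drawn at 2 PETs, mark the 17 loops that were not in the PDS list, and no listed loop had more PETs after PDS than in mock-treated cells.

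After PDS, 127 same-gene promoter loops had 5 or more PETs, and 92 of them were mock loops. GALNT9, which starts O-linked glycosylation of proteins, held the highest PDS count, with 11 PETs after 8 in mock-treated cells. Its anchor midpoints were 57.0 kb apart, but the gap between the anchors was only 1767 bp. The anchors were wide, at chr12:132207016-132255423 and chr12:132257191-132319279, against a median width of 7544 bp in mock loops of the class. CDC27, a subunit of the anaphase-promoting complex, had a loop with 9 PETs in both lists and another with 10 and then 8. PPARA, the nuclear receptor that drives fatty acid oxidation in liver, had a loop with 4 mock and 8 PDS PETs and a second with 6 and 5. ZNF133 had 9 and 8 PETs, RGS14, a regulator of G protein signalling, 8 in both, and the ubiquitin ligase G2E3 6 and 8. JAG1, a Notch ligand, and HNRNPC, which binds nascent RNA, had 6 mock and 7 PDS PETs. In 7 of the shared loops the count was higher after PDS by 3 PETs or more, namely those of GALNT9, PPARA, CBFA2T3 (4 and 7 PETs), ITGB4, ADD2, PLEKHB2 and PCMTD2 (3 and 6 PETs each). The last 6 of these had a G4 motif at both anchors and GALNT9 at 1, while 116 of the 490 shared loops had one at both. They were selected for their difference, so it carries no test.

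Of the 988 PDS loops, 498 (50.4%) were not in the mock list, against 60.9% of all PDS loops. Most were weak, with 372 at 3 PETs, 91 at 4 and 27 at 5. ELMOD3 had 8 PETs. MACROH2A2, a histone variant, ANKRD11, a chromatin regulator, CALCOCO2, an autophagy receptor, SLC38A10 and the splicing regulator SRRM3 had 6. The loops with 5 PETs included those of ABAT, ADGRF1, ARHGAP8, BRPF3, C2orf74, CCDC150, CEP112, GET1, GRB10, MFSD4B, PCTP, PHACTR3, RABGEF1, RBPMS, SEPTIN9, SLC4A8, SRC, SULT1C2, SV2B, TACC1, TBC1D8, TTI1, TWF1, USP54, ZNF362 and ZNF746. No pair of the 35 loops with 5 or more PDS PETs outside the mock list fell in the same gene.

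The loops spread over many genes, most with a single one. In mock-treated cells 2268 genes had at least 1 loop, 835 had one after PDS and 590 in both lists, of which 430 had the same loop in both. These counts stand against 4276 genes that had 2 or more anchors of their own, so that 53.0% of the eligible genes had a mock loop and 19.5% a PDS loop. Since anchors are known only from listed loops, a gene with a same-gene loop was eligible by construction. This also holds for the eligible genes of the gene lists below. Of the genes with a mock loop, 1647 had 1, 510 had 2 or 3, and 111 had 4 or more, which held 567 loops together. Genes with a mock loop had a median length of 61992 bp and a median of 12 annotated transcripts, against 68458 bp and 11 for the eligible genes and 27424 bp and 6 for all protein-coding genes. More annotated starts give a gene more chances to be counted.

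SEPTIN9, a cytoskeletal GTPase with several known first exons, had the most loops. Its 11 anchors were joined by 16 mock loops with 65 PETs, of 55 possible pairs, and by 5 PDS loops with 19 PETs. Only 2 loops were in both lists, those from 99.5 to 128.7 kb into the gene (6 and 3 PETs) and from 139.5 to 202.6 kb (4 in both). The strongest mock loop, with 8 PETs from 149.7 to 171.4 kb, was not listed after PDS. The strongest PDS loop, with 5 PETs from 184.5 to 202.6 kb, was not in the mock list. The anchors at 6.6, 99.5, 139.5, 184.5 and 202.6 kb were thus in use in both conditions in other combinations.

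RALGAPA1, a subunit of a Ral GTPase-activating complex, had 10 mock loops and 2 PDS loops. Its loop from 59.4 to 71.2 kb with 10 PETs was absent after PDS, while the neighbouring loop from 49.6 to 59.4 kb went from 6 to 5 PETs. TNS1, which ties integrins to actin, had 9 and 3 loops. In TNS1 the strongest loop, from 58.4 to 87.6 kb, fell from 11 to 6 PETs and the next one upstream, from 37.7 to 58.4 kb, had 4 and 5. MIPOL1 had 9 mock and 6 PDS loops, with 4 in both, and its loop over 154.8 kb from 73.5 to 228.3 kb had 6 and 4 PETs.

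**Figure D4:**
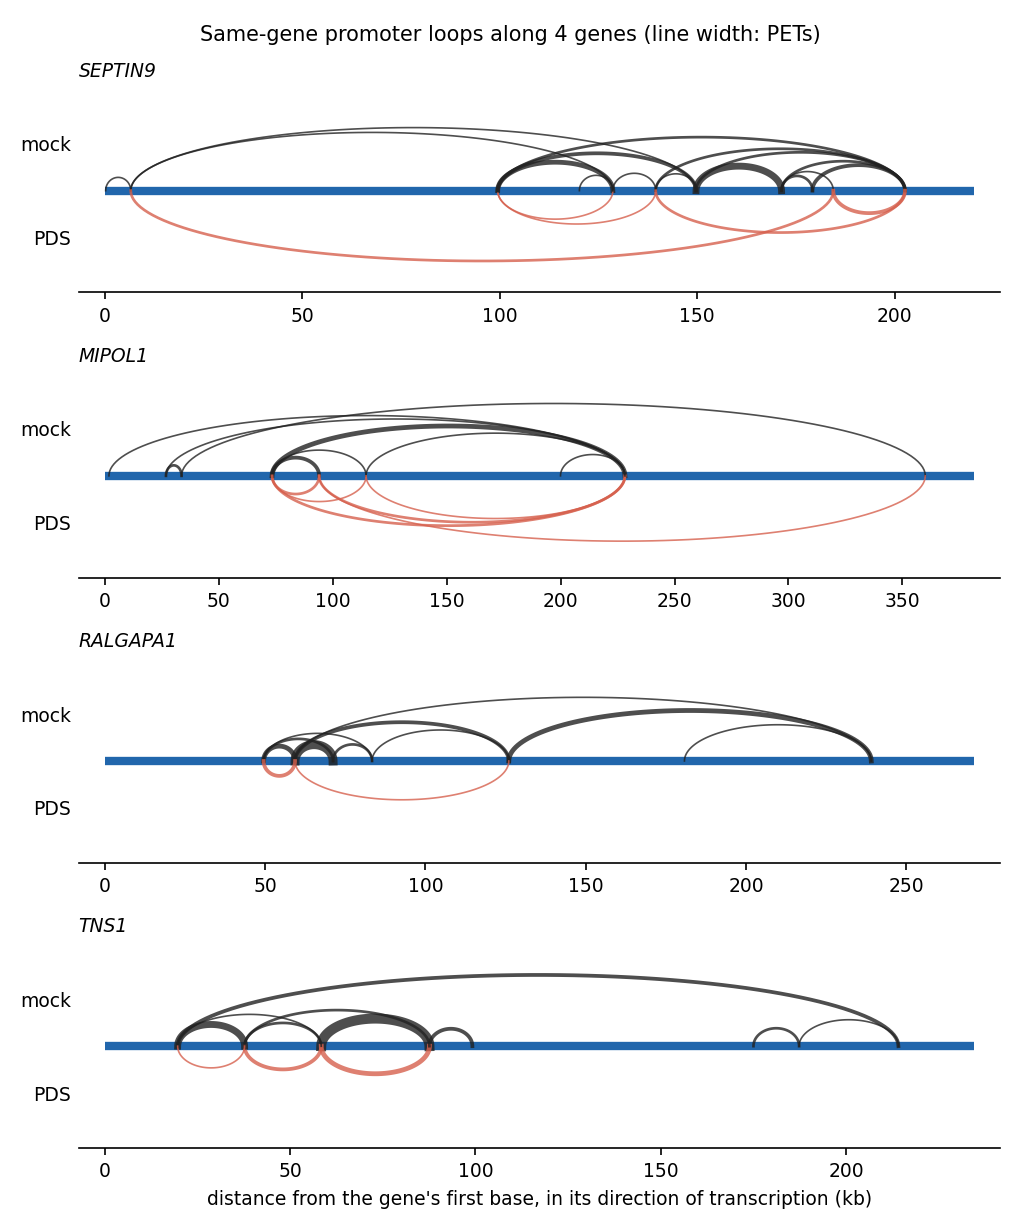
Same-gene promoter loops as arcs between anchor midpoints along SEPTIN9, MIPOL1, RALGAPA1 and TNS1, by distance in kb from the first base of the gene in its direction of transcription (horizontal axis), mock loops above and PDS loops below the gene. The line width grows with PETs and the height of an arc only with its span. SEPTIN9 has 16 mock and 5 PDS arcs, MIPOL1 9 and 6, RALGAPA1 10 and 2, and TNS1 9 and 3.

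Other genes with many loops differed in how many were listed after PDS. ACSL3 had 6 mock loops with 45 PETs, and 5 of them were in the PDS list, with 16 PETs in all. EPAS1, the oxygen-regulated transcription factor HIF-2α, had 5 loops in each list with 29 and 20 PETs, and 4 were shared. HNRNPC had 5 and 4 loops, all 4 shared, with 37 and 17 PETs. At the other end FOXP1, a forkhead transcription factor, and MCF2L, a guanine nucleotide exchange factor, had 7 mock loops each and none after PDS, though none of their mock loops had more than 4 PETs. MYO5A, WWP2, SPAG9 and BUB1 had 6 mock loops each and none after PDS, with strongest counts of 8, 7, 5 and 4 PETs. LRPPRC and RPGRIP1 had 5 each and none after PDS, with strongest counts of 9 in both. SLC13A3, a dicarboxylate transporter, had 9 and 2 loops, ATXN2, an RNA-binding protein, 9 and 2, RBM39 8 and 1, and the Src-family kinase FYN 8 and 3. POR, the electron donor of cytochromes P450, had 6 and 1. BANP had more loops after PDS, with 3 mock and 6 PDS loops.

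Loops of a gene often shared an anchor. Among 1273 pairs of mock loops of a gene with an anchor in common, the outer anchors were also joined by a loop in 351 (27.6%). This gave 117 closed triangles of start-site anchors in 90 genes. Over all 12182 same-gene pairs of mock-list anchors 5 to 200 kb apart, 27.6% were mock loops. The closed share was thus near the share over all such pairs, without matching for distance.

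Of genes known for alternative promoters, 18 of 40 had 2 or more anchors of their own and 5 had a mock loop, or 27.8% of the eligible ones against 53.0% over all genes. Their 15 mock loops had a median of 3 PETs, as over all mock loops of the class, and 1 (6.67% against 14.5%) was in the PDS list. TCF7L2, a Wnt effector, was the gene with that loop, at 5 mock and 3 PDS PETs. FOXP1 had 7 loops and LPIN1, a phosphatidate phosphatase, 4. CYP19A1, the aromatase gene with tissue-specific first exons, had 2 loops of 3 PETs, and MDM2, the p53 ubiquitin ligase, 1 of 3 PETs. In the MDM2 loop a start site was within reach of both anchors.

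Liver transcription factors had mock loops in 10 of 14 eligible genes of the 35 listed, or 71.4% against 53.0% over all genes. Of their 14 mock loops, 5 (35.7%) were in the PDS list against 14.5% of all mock loops of the class, a count of 5 that is too small to rank. HLF, a PAR bZIP factor, had 8 mock and 4 PDS PETs. NFIA had 5 mock loops, of which those with 7 and 4 PETs were listed after PDS with 5 and 3. XBP1, the factor of the unfolded protein response, had 4 and 3 PETs between its start and end, and SREBF2, which controls cholesterol synthesis, 3 in both. GATA4 and the carbohydrate-response factor MLXIPL had a mock loop (4 and 3 PETs) and a different PDS loop (3 PETs each). NR5A2, TBX3 and USF1 (3 PETs each) had a mock loop and none after PDS.

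Among nuclear receptors 10 of 17 eligible genes of 48 had a mock loop, or 58.8% against 53.0% over all genes, and PPARA alone had loops after PDS, with 2 loops and 13 PETs. THRA, a thyroid hormone receptor, had the highest mock count of the list, 9 PETs, and its loop was not listed after PDS. RARA, a retinoic acid receptor, had 3 mock loops of 5, 4 and 4 PETs, RXRA, the common partner of such receptors, had 4 and 3, and NR2C1 had 2 loops of 3. NR4A1, NR5A2, RARG, THRB and VDR had 1 loop of 3 PETs each. Of the 15 mock loops, the 2 of PPARA were listed after PDS, a share of 13.3% against 14.5% of all mock loops of the class.

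Transcriptional coregulators had mock loops in 13 of 27 eligible genes of 40 (48.1% against 53.0% over all genes), with 24 loops of 3 to 5 PETs. Of these 24, 1 (4.17% against 14.5% of all mock loops of the class) was also listed after PDS, that of NCOA1, a coactivator of nuclear receptors, with 5 and 3 PETs. ARID1B, a subunit of BAF chromatin remodellers, had 5 mock loops of 3 to 5 PETs and a different PDS loop of 4, and ARID1A had 2 mock loops of 5 and 4 PETs and another of 3 after PDS. KMT2A and MED13L likewise had other loops after PDS, of 3 PETs. KMT2C had 3 mock loops, HDAC4 and NCOR1 2 each, and BRD3, EP300, KMT2B and KMT2D 1 each, with no loop after PDS. SMARCA4, the ATPase of BAF, had a loop of 3 PETs in the PDS list alone. With counts of 3 to 5, a loop is near the listing minimum.

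Genes of plasma proteins and lipid transport, which mark HepG2 as a hepatocyte line, had mock loops in 10 of 13 eligible genes of 45, or 76.9% against 53.0% over all genes. Their 18 mock loops had a median of 4 PETs, and 4 (22.2% against 14.5% of all mock loops of the class) were also in the PDS list. FN1, the fibronectin gene, had mock loops of 7, 5 and 5 PETs. After PDS the first was not listed, the others had 3 and 5, and a further one of 3 appeared. C3, the complement component, had loops of 7 and 4 PETs, of which the first had 3 after PDS. ALB had a second loop of 3 PETs beside that of 13. CP, the copper carrier ceruloplasmin, had 4 loops of 4, 4, 4 and 3 PETs. TF, the gene of transferrin, had 2 loops of 6 and 3, SCARB1, the HDL receptor, 1 of 6 and TTR, the gene of transthyretin, 1 of 5. APOH, F2 and ITIH1 had 1 loop of 3 each. None of those of CP, TF, SCARB1, TTR, APOH, F2 and ITIH1 was listed after PDS.

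G4 motifs were less common in same-gene promoter loops than in loops between different genes. Within 1 kb of the start sites and inside the anchor, 58.8% of the mock loops (57.2 to 60.5%) held a motif at 1 or both anchors, against 85.1% (84.0 to 86.2%) of the mock loops between different genes. Both anchors held one in 662 loops (19.6%, 18.3 to 21.0%) against 49.5% (48.0 to 51.1%). Counted by anchor, 40.1% (38.9 to 41.4%) of the 5702 anchors had a motif, against 49.7% (48.8 to 50.6%) of 12106 other anchors with start sites of a single gene. The share went with the kind of start. Anchors with the canonical start had a motif in 77.0% (74.7 to 79.2%) of 1347 cases and the remaining 4355 in 28.7% (27.4 to 30.1%). For other anchors the shares were 73.7% (72.6 to 74.9%) and 27.6% (26.5 to 28.7%). The searched windows had medians of 2400, 2001, 2171 and 2001 bp in the order of these 4 groups, and median GC contents of 55.6%, 43.7%, 55.8% and 44.4%. Within a kind of start the anchors of same-gene loops were thus within about 3 percentage points of the others, in windows of slightly different length.

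With and without a G4 motif at a start site, similar shares of mock loops were listed after PDS. The share listed after PDS was 14.4% (13.0 to 16.1%) of the 1988 loops with a motif and 14.6% (12.8 to 16.5%) of the 1391 without. At equal mock PETs the odds ratio was 0.926 (0.755 to 1.14), an interval that includes both lower and higher odds. With a motif at both anchors 17.5% (14.8 to 20.6%) were listed after PDS, and with a motif at exactly 1 anchor 12.9% (11.2 to 14.8%). Against loops without a motif the odds ratios were 1.14 (0.879 to 1.49) and 0.827 (0.658 to 1.04), so both intervals included 1. Against all other loops, those with a motif at exactly 1 anchor had an odds ratio of 0.799 (0.648 to 0.985) and those with motifs at both 1.22 (0.963 to 1.56). The ratio of PDS to mock rates in shared loops was 0.465 (0.393 to 0.545) without a motif, 0.476 (0.400 to 0.562) with a motif at 1 anchor and 0.474 (0.382 to 0.580) with one at both.

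By the GC content of the start-site windows, the PDS/mock ratio of loop numbers was 0.299 (0.265 to 0.338) in the lowest group of 1127 loops, 0.304 (0.269 to 0.343) in the middle group and 0.274 (0.242 to 0.311) in the highest, where 95.2% of loops held a motif against 18.5% in the lowest. These intervals overlap. No measured map of folded G4s was used here, and letters do not tell which motifs fold in HepG2 cells.

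The annotated features of a loop were compared in the same way. Loops with the canonical start at the upstream anchor had an odds ratio of 0.806 (0.653 to 0.994) against the rest, and loops between neighbouring anchors 1.28 (1.02 to 1.60), both with intervals that excluded 1. Loops with protein_coding transcripts at both anchors had one of 1.00 (0.814 to 1.24), and loops with a start site in reach of both anchors 1.21 (0.854 to 1.71). These 14 features overlap in the loops they hold and were compared without adjustment, so these odds ratios are descriptions.

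**Figure D5:**
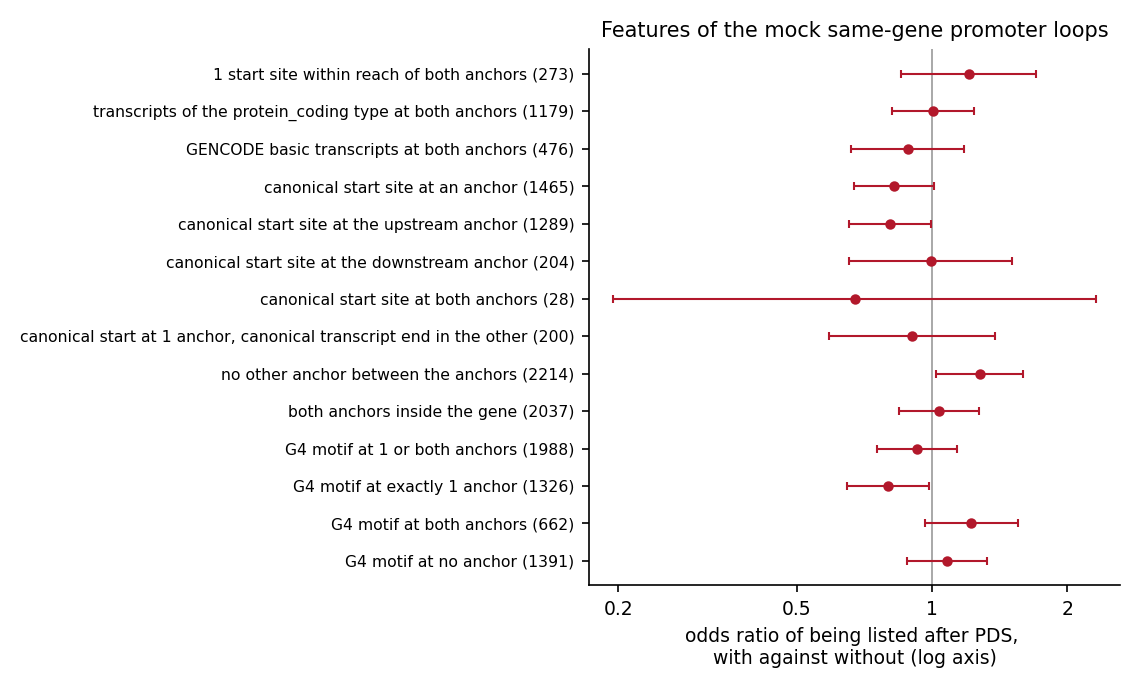
Odds ratio of being listed after PDS for mock same-gene promoter loops with a feature against those without it, over classes of mock PETs, on a log axis, with the number of mock loops that have the feature in brackets. Points are Mantel-Haenszel odds ratios, bars are 95% intervals, and the line marks 1. Estimates run from 0.672 for the 28 loops with the canonical start in reach of both anchors to 1.28 for neighbouring anchors.

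By chromosome, the PDS/mock ratio of loop numbers ran from 0.197 (0.139 to 0.279) on chromosome 3 to 0.415 (0.266 to 0.648) on chromosome 22. These intervals overlap, and chromosome 22 held only 65 mock and 27 PDS loops of the class. Over all loops the ratios of chromosomes 3 and 22 were 0.244 and 0.248. The median ratio of same-gene loops over the 22 autosomes was 0.298. Chromosomes 2, 6, 14, 16, 17 and 20, known to be gained in HepG2, held 48.5% of the mock same-gene loops and 55.2% of all mock loops. On these chromosomes 18.3% (16.5 to 20.2%) of the mock loops were listed after PDS and the ratio of loop numbers was 0.321 (0.291 to 0.354). On the remaining chromosomes the values were 11.0% (9.59 to 12.5%) and 0.266 (0.240 to 0.295). The ratio over all loops was split in the same way. It was 0.274 to 0.369 on each of the gained chromosomes and 0.263 or lower on each of the others. The mean mock count of same-gene loops was 4.30 PETs on the gained chromosomes and 3.84 on the others. The part of copy number in these differences was not tested.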

How the data were processed

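POLR2A HiChIP-seq loop lists of mock- and PDS-treated HepG2 cells were used as the authors deposited them, with 1 combined list per condition and whole-number counts of PETs per loop, without scaling. Per the labels and methods, reads were processed on GRCh38 with HiC-Pro 3.1.0 and MboI fragments. The loop caller and the way replicates were combined are not given in the sources used here. The number of sequenced read pairs per library was not used here, so precision is set by the PETs, with a minimum of 3.

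Anchors were matched to GENCODE 44 start sites (window 1 kb). A mock loop was shared when both anchors overlapped those of a PDS loop (bedtools 2.31.1, at least 1 bp). Shares have Wilson intervals, ratios have intervals derived from those of the PDS part of both counts, and medians have binomial-rank intervals (scipy 1.17.1). Odds ratios are Mantel-Haenszel estimates with 7 classes of mock PETs. Single-copy sequence was counted with 31-mers over chromosomes 1 to 22, X and Y. The statistics were tested on simulated data. Sequences were read from the GRCh38 reference (pysam 0.24.0).

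The loop class, the 5 gene lists and the tests were chosen with earlier results of these data known. The genes named were those of the 15 mock loops with most PETs, of PDS loops with at least 5 PETs, of PDS-only loops with at least 5 PETs, with at least 4 mock loops, and of the lists. Of the 127 PDS loops and 111 genes with many loops, those with the highest counts are named here. The 48 loops with 10 or more mock PETs were named after their values were seen, as was BANP, which meets none of these criteria. Some genes that this rule covers are not reported here, though they are in the counts. Alternatives changed the start-site window, the transcripts counted, the PET minimum, the distance, the overlap rule, the scaling, the strata and the motif, and others were added after seeing the data.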

Additional observations from a re-analysis of the deposited data

How the results depend on the processing

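Single loops rest on few PETs. A higher PET minimum removed a larger part of the PDS loops of the class than of the mock loops. With at least 4 PETs the ratio for loops was 0.208, that for PETs 0.185, the share also listed after PDS 10.9% and the median distance 13054.2 bp. With at least 5 PETs these were 0.148, 0.133, 7.58% and 12890.5 bp, and the odds ratio against different-gene loops was 1.43, with an interval that included 1. With GENCODE basic transcripts alone the ratios were 0.246 for loops and 0.213 for PETs, the median distance was 12861 bp and the odds ratio was 1.26, with an interval that included 1. With protein_coding transcripts alone the PET ratio was 0.238. At 10 kb or more the share was 15.9%, the PET ratio 0.274 and the median distance 18663.5 bp. The median distance was 12626 bp with a window of 2 kb and 12827.8 bp with start sites of all annotated genes. Among settings added after seeing the data, it was 14356.8 bp without loops that have a start site in reach of both anchors and 12901.8 bp without genes of 4 or more mock loops. Extending anchors by 5 kb gave a share of 30.4%, and dividing PETs by list totals gave a PET ratio of 0.972. The share of candidate pairs listed was 27.6% with anchors of mock loops alone.

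The share of loops with a G4 motif was 69.9% with spacers of up to 12 bases, 16.1% with at least 4 G per run and 78.9% anywhere in the anchor. The odds ratio with against without a motif was 1.07 with at least 4 G per run, 1.04 with motifs anywhere in the anchor and 1.14 for both anchors against neither (added after seeing the data), in place of 0.926, and every one of these intervals included 1. The cause of these shifts was not tested. Of the 66 alternative values, 36 kept their direction and their side of 1 or stayed within the interval. Leaving out replicates was not run. No paired analysis was possible because the loop lists used here hold 1 combined count per condition.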
